A study of Mus musculus with 10 samples.

Results

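The 45 genes described here make the proteins that copy DNA and divide the cell: 22 act in mitosis and 23 in DNA replication, out of 33714 genes summed from the transcripts of a bulk RNA table of mouse kidney. They are listed by name, and all 45 passed the filter on low counts. The bulk table held 8 groups of kidneys from mice aged 8 weeks, and 29 of its 32 libraries were used. In 3 arms the artery of 1 kidney was closed for 15 minutes and both kidneys were taken 2 weeks later, giving an injured and a contralateral group of 4 libraries each. The wild-type tamoxifen arm was C57/BL6 given tamoxifen. The floxed vehicle arm was Pax8creERT2;Ihhfl/fl without tamoxifen. The labelled Ihh-deleted arm was the same strain given tamoxifen, in which a Cre driven by Pax8, a gene of the tubule epithelium, is meant to remove the ligand Indian hedgehog (Ihh) in the epithelium while the other cells of the kidney keep it. The last groups, both C57/BL6, were kidneys left in place after removal of the opposite kidney (nephrectomy, 3 libraries used) and uninjured kidneys (2 libraries used). Another 2 libraries, from 1 injured and 1 uninjured C57/BL6 kidney, held single live cells. They too were from mice aged 8 weeks, and the injured kidney was taken 2 weeks after 15 minutes of ischaemia.

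Ihh itself went partly against the labels. It stood at 4.25, 6.0, 5.33 and 4.31 CPM (counts scaled to 1000000 per library with TMM factors) in the injured kidneys labelled Ihh-deleted and at 4.76 to 13.7 CPM in the 8 injured kidneys of the arms that keep Ihh, called intact here. In the contralateral kidneys labelled Ihh-deleted it stood at 4.8, 9.39, 3.88 and 18.3 CPM, and the last value lay above all 8 intact contralateral libraries, so that arm is called labelled Ihh-deleted throughout. Library totals ran from 0.593 to 38 M counts. The smallest was uninjured library 2 and the largest contralateral floxed vehicle library 2. Nephrectomy library 3 and uninjured libraries 1 and 4 carried a heart profile and were left out, and nephrectomy library 1, which was kept, had a heart marker sum of 578 CPM against 12.2 to 15.5 CPM in the other nephrectomy libraries used. The labels do not say that the libraries of a group come from separate animals, so a p-value measures the spread among libraries, which may be technical.

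A cell that divides first copies its genome and then shares the copies out. Transcription factors of the E2F family switch on replication genes as a cell leaves G1: origins are licensed with the MCM helicase, the helicase is fired, and enzymes of nucleotide supply feed the polymerases. Mitosis genes are made later, in G2, when repression through the cell cycle homology element is lifted and factors such as Foxm1 and NF-Y, which binds the CCAAT box, act on them. In the adult kidney few cells divide. After ischaemia, surviving tubule cells, fibroblasts and incoming white blood cells can all enter the cycle.

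Promoter sequences are shown first because the 2 sets of genes carry different control letters. Whether these letters relate to how far the RNA of a gene moved was not tested. RefSeq windows on GRCm38.p6, from 250 bases before the start to 50 bases after it, were matched for 35 of the 45 members, 17 of mitosis and 18 of replication. The members without a match were Tipin, Mcm4, Kif20a, Aurkb, Ccne2, Gins2, Tpx2, Foxm1, Ccna2 and Gins1. Both strands were searched for an E2F core (GCGGGAA or GCGCGAA), the core of the homology element (TTTGAA) and the CCAAT box (CCAAT). The E2F core was found in 10 of 18 replication windows (55.6%) and 1 of 17 mitosis windows (5.88%), against 6.06% of all 27025 genes. The homology element went the other way, in 12 of 17 mitosis windows (70.6%) and 3 of 18 replication windows (16.7%), against 18.1% of all genes. The CCAAT box was in 15 of 17 mitosis windows (88.2%) and 11 of 18 replication windows (61.1%), against 37.9% of all. Every window of either set with a homology element also held a CCAAT box. The combination was thus in 12 of 17 mitosis windows (70.6%) and 3 of 18 replication windows (16.7%), against 7.12% of all windows. These are matches of letters, not measured binding.

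**Figure D1:**
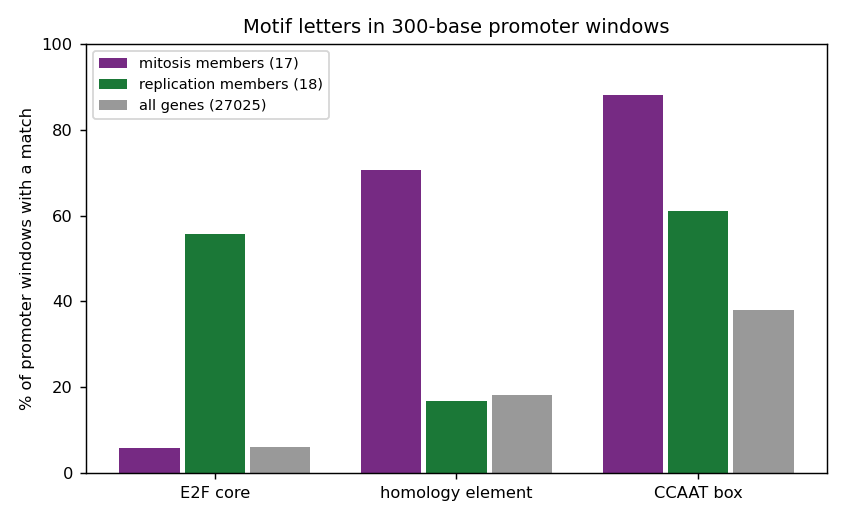
Share of promoter windows of 300 bases with at least 1 match (vertical axis, percent) for 3 motifs, in mitosis members, replication members and all genes of the RefSeq table. The E2F core is most frequent in replication members (55.6%), the homology element and the CCAAT box in mitosis members (70.6% and 88.2%).

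The windows of 3 mitosis genes and 3 replication genes show these patterns. Capitals mark every match on either strand, so that motifs read on the other strand are marked in their reversed letters. Mki67 and Plk1 hold the homology element and the CCAAT box without an E2F core, Cdk1 is the mitosis member with all 3, and Mcm5, Mcm6 and Uhrf1 hold E2F cores and CCAAT boxes without a homology element.

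Mki67, chr7:135716330-135716629, minus strand: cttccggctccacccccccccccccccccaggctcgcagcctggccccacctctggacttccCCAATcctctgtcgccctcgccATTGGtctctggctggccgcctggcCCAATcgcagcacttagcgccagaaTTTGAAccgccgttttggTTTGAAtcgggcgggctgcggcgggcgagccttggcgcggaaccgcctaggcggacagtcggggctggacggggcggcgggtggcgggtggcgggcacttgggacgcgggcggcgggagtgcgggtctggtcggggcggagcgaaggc
Plk1, chr7:122159185-122159484, plus strand: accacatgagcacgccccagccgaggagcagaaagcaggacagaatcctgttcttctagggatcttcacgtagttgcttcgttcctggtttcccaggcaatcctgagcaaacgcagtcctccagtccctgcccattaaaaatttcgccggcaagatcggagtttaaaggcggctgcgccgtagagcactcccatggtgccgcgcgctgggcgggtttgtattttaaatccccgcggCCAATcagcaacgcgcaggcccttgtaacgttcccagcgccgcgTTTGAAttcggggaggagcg
Cdk1, chr10:69352863-69353162, minus strand: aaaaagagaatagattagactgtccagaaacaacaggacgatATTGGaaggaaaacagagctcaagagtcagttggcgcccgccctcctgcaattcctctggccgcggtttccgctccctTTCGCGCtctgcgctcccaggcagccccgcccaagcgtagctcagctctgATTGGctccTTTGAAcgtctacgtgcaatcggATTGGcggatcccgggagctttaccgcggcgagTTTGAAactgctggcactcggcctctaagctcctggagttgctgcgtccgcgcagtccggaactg
Mcm5, chr8:75109259-75109558, plus strand: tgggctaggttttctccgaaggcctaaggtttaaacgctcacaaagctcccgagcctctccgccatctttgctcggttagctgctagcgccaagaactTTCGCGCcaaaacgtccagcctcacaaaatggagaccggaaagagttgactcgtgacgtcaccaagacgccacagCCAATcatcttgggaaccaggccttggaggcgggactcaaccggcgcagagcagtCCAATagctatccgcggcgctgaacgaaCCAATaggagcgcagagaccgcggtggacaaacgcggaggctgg
Mcm6, chr1:128359656-128359955, minus strand: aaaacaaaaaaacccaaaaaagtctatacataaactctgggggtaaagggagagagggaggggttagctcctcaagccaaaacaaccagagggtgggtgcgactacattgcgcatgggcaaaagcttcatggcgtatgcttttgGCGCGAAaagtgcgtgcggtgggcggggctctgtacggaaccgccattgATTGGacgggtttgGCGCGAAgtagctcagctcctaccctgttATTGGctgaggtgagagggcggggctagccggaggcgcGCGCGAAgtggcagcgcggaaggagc
Uhrf1, chr17:56303087-56303386, plus strand: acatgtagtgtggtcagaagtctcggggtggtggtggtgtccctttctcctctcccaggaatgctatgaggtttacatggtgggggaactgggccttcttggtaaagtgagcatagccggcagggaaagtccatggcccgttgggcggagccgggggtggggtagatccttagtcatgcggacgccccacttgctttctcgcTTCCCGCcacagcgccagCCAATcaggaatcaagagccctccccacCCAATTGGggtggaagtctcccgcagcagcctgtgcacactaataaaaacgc

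The start is base 0 of each window. In Mki67 the homology elements begin at bases -116 and -98, and CCAAT boxes at -188, -166 and -141. In Mcm6 the E2F cores begin at -106, -43 and 24. Matches of different motifs did not overlap in these windows, while in Uhrf1 CCAAT box matches at -2 and 1 share letters.

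Injured kidneys held more RNA of nearly every member than contralateral kidneys 2 weeks after ischaemia. Over the 3 arms, weighted equally, 21 of 22 mitosis genes and 20 of 23 replication genes rose and none fell (edgeR quasi-likelihood test with Benjamini-Hochberg adjustment over 17616 genes, threshold 0.05). Of all genes tested, 39% were called higher and 34.7% lower, so a called rise alone is common in this comparison. The median log2 fold change was 1.52 in mitosis genes and 0.79 in replication genes, against 0.05 over all genes. In bulk kidney, fewer cells of a type and less RNA per cell cannot be told apart. The exceptions were Aurka (0.62), Gins1 (0.38), Tyms (0.01) and Tipin (-0.14), which did not pass the test.

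The summed CPM of the 22 mitosis genes was 40.3 at lowest, 51.9 at the median and 80.1 at highest over the 12 contralateral libraries, and 50.1, 203 and 445 over the 12 injured ones. For the 23 replication genes the same values were 254, 278 and 299 in contralateral and 252, 395 and 589 in injured libraries. The sums of the injured libraries thus spread far more widely than those of the contralateral ones and overlapped them at the low end. The ratio of the mitosis sum to the replication sum, which compares libraries and not the 2 sets, averaged 0.189 ± 0.0432 (SD, n = 12) in contralateral and 0.452 ± 0.182 (SD, n = 12) in injured kidneys. Its mean log2 value was 1.18 higher in injured kidneys, with an SD within groups of 0.455. Tyms, the most abundant replication member, and Mki67 weigh on such sums, and with both left out the difference was 0.861. With every gene weighted equally, as the mean of log2(CPM + 0.5), it was 0.444.

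**Figure D2:**
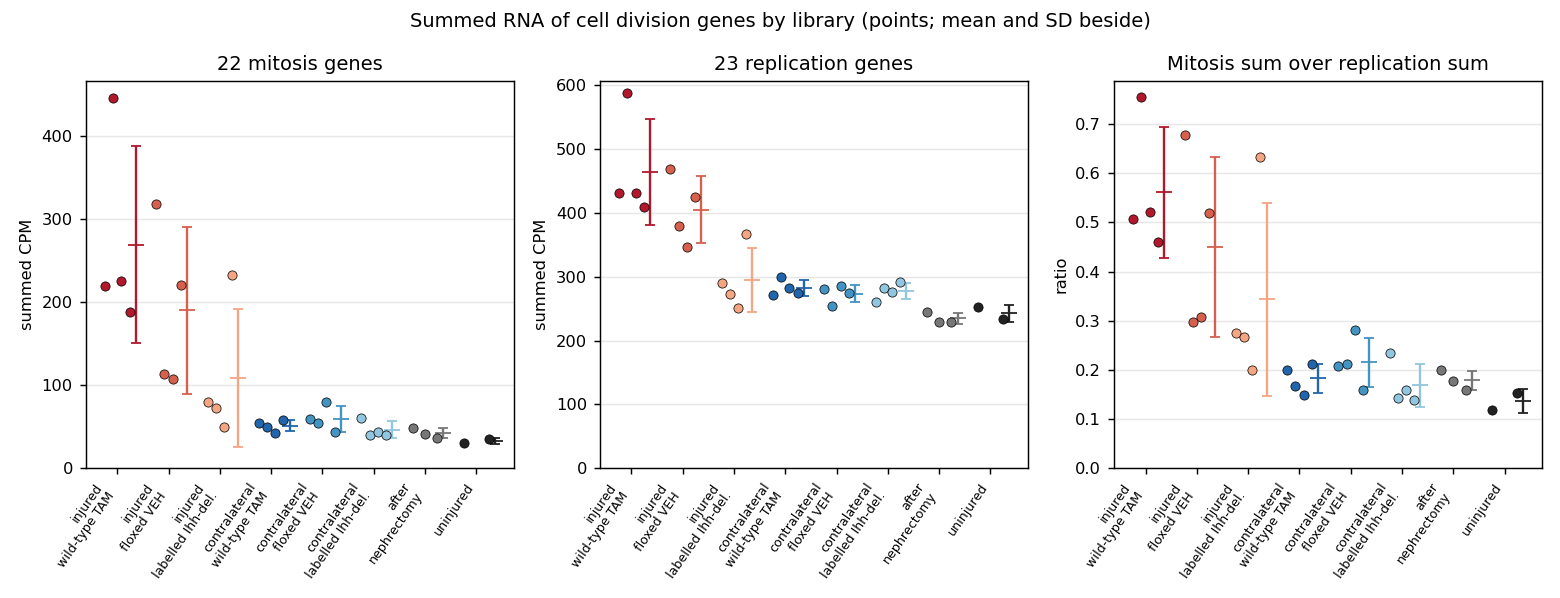
Summed CPM of the 22 mitosis genes (left) and the 23 replication genes (middle) and the ratio of these sums (right) in each of the 29 libraries (points), with the mean and SD of each group beside them. Contralateral, nephrectomy and uninjured kidneys stay at mitosis sums of 80.1 or less, while injured kidneys reach 445, and the labelled Ihh-deleted injured group has 3 low libraries and 1 at 232.

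Chromosome markers led the mitosis genes. Mki67, which coats mitotic chromosomes, stood at 52.6, 116, 54.7 and 39.8 CPM in injured wild-type tamoxifen libraries, at 70.2, 21.3, 20.9 and 49.5 CPM in injured floxed vehicle libraries and at 15.8, 14.1, 9.20 and 65.4 CPM in injured labelled Ihh-deleted libraries. The 12 contralateral libraries had 3.11 at lowest, 6.22 at the median and 14.4 CPM at highest. All 8 intact injured libraries lay above every contralateral library, and 2 of the 4 labelled Ihh-deleted ones (14.1 and 9.20) did not. The log2 fold change was 2.59 (SE 0.30, adjusted p = 4.55e-08). Top2a, which untangles the copied DNA, stood at 46.3, 100.5, 44.7 and 37.9 CPM, at 73.4, 21.4, 19.6 and 49.4 CPM and at 12, 14.2, 9.24 and 50.3 CPM in the same order of arms. Its contralateral values were 5.08, 7.86 and 11.8 CPM (lowest, median, highest), and only library 3 of the labelled Ihh-deleted arm overlapped them. It rose by 2.24 (SE 0.26, adjusted p = 5.88e-08).

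Of the 8 cyclins, mitotic kinases and their partners, 7 rose, with a median log2 fold change of 1.36. Cdk1, the kinase that starts mitosis, stood at 6.49, 12, 4.93 and 6.08 CPM in injured wild-type tamoxifen, 8.98, 3.79, 3.04 and 5.63 CPM in injured floxed vehicle and 2.07, 1.94, 0.755 and 4.77 CPM in injured labelled Ihh-deleted libraries, against 0.771, 1.64 and 3.17 CPM (lowest, median, highest) in contralateral ones. Its fold change was 1.45 (SE 0.25, adjusted p = 1.69e-05), and 1 intact injured library (3.04) and 2 labelled Ihh-deleted ones (2.07 and 1.94) lay within the contralateral range, with 1 labelled Ihh-deleted library (0.755) below it. Ccnb1, its cyclin partner, had 5.09, 10.9, 6.87 and 5.60 CPM, then 10.8, 2.51, 2.85 and 5.55 CPM, then 2.76, 1.5, 0.933 and 4.84 CPM in the same order, against 0.870, 1.73 and 2.74 CPM, and rose by 1.38 (SE 0.27). The injured values of Ccnb1 overlapped the contralateral ones in both floxed arms. Plk1, a kinase of spindle assembly, had 2.25, 5.47, 2.69 and 1.98 CPM, 4.0, 1.58, 1.96 and 2.88 CPM and 1.38, 1.99, 1.07 and 2.68 CPM, against 0.576, 1.04 and 2.03 CPM, and rose by 1.15 (SE 0.25). Birc5, which holds Aurora B on chromosomes, had 3.76, 5.70, 4.14 and 2.65 CPM, 4.0, 2.34, 2.35 and 4.84 CPM and 2.07, 1.99, 1.47 and 4.51 CPM, against 0.839, 1.20 and 2.38 CPM, and rose by 1.34 (SE 0.22). Plk1 overlapped contralateral values in every arm and Birc5 in both floxed arms.

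All 4 checkpoint and anaphase genes, all 7 spindle and kinetochore genes and the transcription factor Foxm1 rose. Among them Bub1, a kinase of the spindle checkpoint, had the largest fold at 2.29 and the spindle protein Nusap1 the smallest at 0.44, followed by Cdc20, the activator of the anaphase-promoting complex, at 0.51. Foxm1 stood at 4.98, 8.43, 6.03 and 5.49 CPM in injured wild-type tamoxifen libraries, at 6.42, 4.30, 4.16 and 6.42 CPM in injured floxed vehicle libraries and at 3.45, 2.91, 2.40 and 4.90 CPM in injured labelled Ihh-deleted libraries. Contralateral libraries held 0.857, 1.51 and 2.20 CPM of Foxm1 (lowest, median, highest). It was the only member of the 45 whose 12 injured libraries all lay above its 12 contralateral ones, which held for 5.34% of all 17616 genes tested, and it rose by 1.65 (SE 0.17, adjusted p = 7.87e-09). Counting the 8 intact injured libraries alone, 11 of 22 mitosis and 8 of 23 replication members lay wholly above the contralateral kidneys, as did 16.3% of all genes tested.

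Replication genes split by role. All 6 subunits of the MCM helicase rose, with a median log2 fold change of 1.04 and a range from 0.25 for Mcm7 to 1.49 for Mcm3. Mcm5 stood at 15.3, 24.8, 14.2 and 15.2 CPM in injured wild-type tamoxifen, 17.9, 10.9, 12 and 17.7 CPM in injured floxed vehicle and 5.90, 4.94, 4.09 and 11.6 CPM in injured labelled Ihh-deleted libraries, against 3.39, 4.91 and 7.82 CPM in contralateral ones. Its 8 intact injured libraries were clear of the contralateral range, and 3 of 4 labelled Ihh-deleted libraries were inside it (fold change 1.22, SE 0.15, adjusted p = 1.70e-07). Mcm2 had 23.6, 32.4, 21.4 and 24.6 CPM, 31.8, 25.7, 27.3 and 25.7 CPM and 20.6, 17.6, 12.5 and 23.9 CPM, against 14.4, 16 and 21.2 CPM, and rose by 0.52 (SE 0.09). Mcm6 had 31.4, 63.5, 42.7 and 20.1 CPM, 26.9, 25.4, 12.7 and 25.1 CPM and 5.59, 4.94, 2.58 and 15.8 CPM. Its contralateral libraries did not form a single range: 9 held 2.70 to 6.68 CPM, while libraries 2 and 3 of the wild-type tamoxifen arm held 23.7 and 25.7 CPM and library 4 of the labelled Ihh-deleted arm 17.9 CPM. The rise of Mcm6 was 1.20 (SE 0.37, adjusted p = 0.00577).

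Of the 5 genes of origin licensing and firing, 4 rose, with a median of 0.61. Cdc6, which loads the helicase, led them: it stood at 2.62, 4.25, 2.62 and 2.05 CPM, 3.05, 1.53, 1.15 and 3.25 CPM and 2.41, 0.662, 0.667 and 2.22 CPM in the 3 injured arms in the order above, against 0.137, 0.521 and 1.17 CPM in contralateral libraries. Both labelled Ihh-deleted libraries at 0.662 and 0.667 CPM and 1 floxed vehicle library lay inside the contralateral range of Cdc6 (fold change 2.01, SE 0.29, adjusted p = 1.23e-06). All 4 regulators of entry into S phase rose, with a median of 1.20. E2f8, a repressor of E2F targets, rose by 2.42 (SE 0.35). Ccne1, the cyclin of S phase entry, had 1.14, 2.54, 1.90 and 0.747 CPM, 2.22, 0.682, 0.385 and 1.63 CPM and 0.421, 0.353, 0.311 and 1.56 CPM, against 0.0925, 0.403 and 0.625 CPM, and rose by 1.54 (SE 0.37). E2f1, the activator of replication genes, had 6.12, 6.95, 3.87 and 4.97 CPM, 6.14, 5.03, 7.47 and 8.09 CPM and 4.33, 4.02, 3.51 and 5.30 CPM, against 2.22, 3.01 and 4.26 CPM, and rose by 0.79 (SE 0.15). Ccne1 and E2f1 overlapped contralateral values in at least 1 library of an intact arm.

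Genes of the fork and of chromatin copying rose in 4 of 5 cases, with a median of 1.39. Uhrf1, which carries DNA methylation through replication, stood at 13.6, 22.4, 13.4 and 14.0 CPM, 18.9, 11.1, 13.3 and 16.8 CPM and 7.51, 6.13, 3.78 and 12.5 CPM in the 3 injured arms, against 2.12, 3.03 and 6.29 CPM in contralateral ones. The rise of Uhrf1 was 1.90 (SE 0.17, adjusted p = 1.58e-09), with 2 labelled Ihh-deleted libraries inside the contralateral range. Pcna, the clamp that holds the polymerase on DNA, moved little: 47.6, 61.3, 43.5 and 46.6 CPM, 56.9, 39.6, 40.6 and 43.9 CPM and 36.3, 38.2, 35.4 and 45.5 CPM, against 28.8, 33.6 and 61.0 CPM. Its highest contralateral value was in floxed vehicle library 2, the library of 38 M counts, and the rise was 0.31 (SE 0.09, adjusted p = 0.00462). Of the 3 genes of nucleotide supply, Rrm2, the regulated subunit of ribonucleotide reductase, had 10.2, 19.5, 13.1 and 10.8 CPM, 11.9, 7.84, 6.81 and 11.4 CPM and 4.83, 3.62, 4.04 and 9.77 CPM, against 3.48, 5.34 and 7.62 CPM, and rose by 0.70 (SE 0.18). Every Rrm2 value of the injured wild-type tamoxifen arm was clear of the contralateral range, which the other arms overlapped. Rrm1, the large subunit, rose by 0.39 (SE 0.08, adjusted p = 0.000158). Its protein-coding transcript held 47.8% of its counts in injured and 35.1% in contralateral kidneys, and a retained-intron transcript 50.5% and 63.8%.

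Tyms and Tipin stood apart from the other members. Tyms, which makes thymidylate for DNA, was at 80.4 CPM at lowest, 89.99 at the median and 99.4 CPM at highest in the 8 intact injured libraries and at 47.7, 91.5 and 105 CPM in the contralateral ones. Its groups overlapped fully, and no contrast between injured and contralateral kidneys called it. Tipin, a protein that steadies the fork, stood at 7.33, 9.30 and 11.9 CPM in intact injured libraries (lowest, median, highest) and at 6.22, 8.28 and 12.8 CPM in contralateral ones, which overlapped as well. In the injured labelled Ihh-deleted libraries it stood at 5.13, 5.96, 4.75 and 5.13 CPM, below all of these. Tipin was the member called lower there than in the arm's own contralateral kidneys, by 0.44 on the log2 scale (log2 fold change -0.44, SE 0.15, adjusted p = 0.0273).

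**Figure D3:**
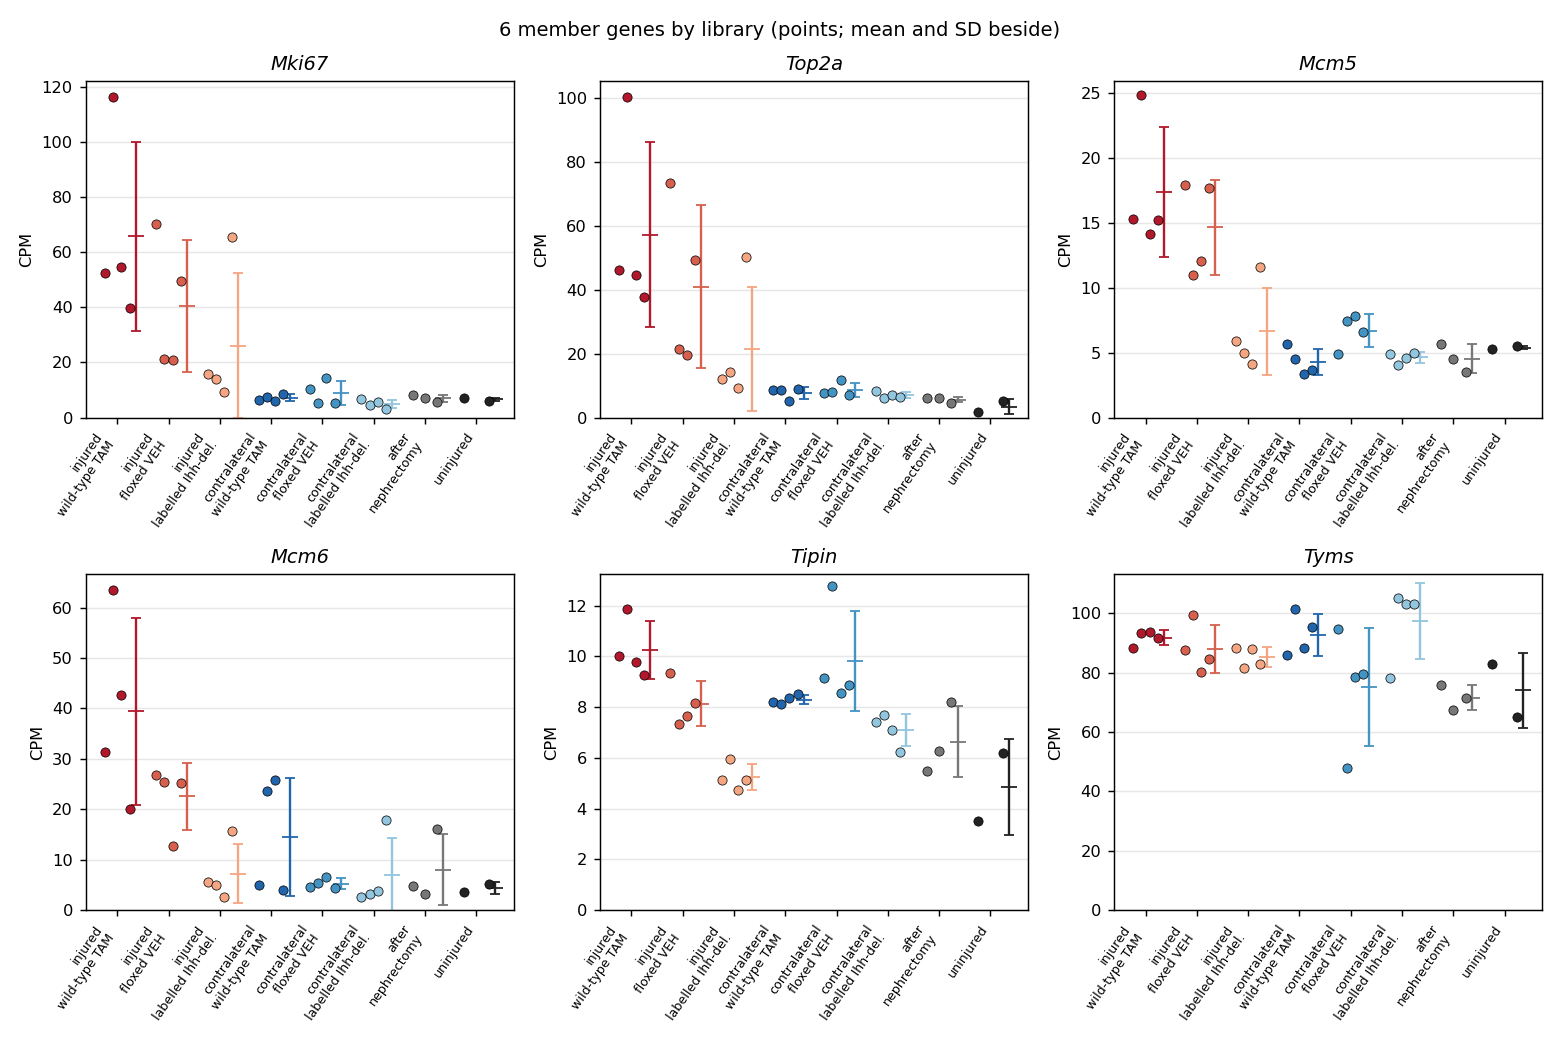
CPM of 6 members in each of the 29 libraries (points, vertical axis starting at 0), with the mean and SD of each group beside them. Mki67, Top2a and Mcm5 are high in intact injured kidneys and low in 3 of 4 labelled Ihh-deleted injured kidneys, Mcm6 has 3 contralateral libraries of 17.9 to 25.7 CPM, Tipin is lowest among ischaemia arms in injured labelled Ihh-deleted kidneys, and Tyms overlaps between injured and contralateral kidneys.

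The rise differed in extent between arms, each against its own contralateral kidneys. In the wild-type tamoxifen arm 41 members rose, 22 of mitosis (median 2.08) and 19 of replication (median 1.25), where 32.1% of all genes were called higher and 28.7% lower. The highest folds were Mki67 at 3.19, Top2a at 2.89 and Bub1 at 2.81 among mitosis genes and E2f8 at 3.52, Cdc6 at 2.45 and Uhrf1 at 2.34 among replication genes, and Mcm6, Tipin, Tyms and Cdt1 did not pass. In the floxed vehicle arm 33 rose, 18 of mitosis (median 1.5) and 15 of replication (median 0.84), where 32.7% of all genes were called higher and 31% lower. Top2a at 2.24, Mki67 at 2.19 and Bub1 at 2.17 led there, and Mcm6 at 2.09, E2f8 at 1.94 and Uhrf1 at 1.86. In the labelled Ihh-deleted arm 13 rose and 1 fell, where 19.3% of all genes were called higher and 14.5% lower. The 13 were Mki67 (2.39), Bub1 (1.89), Top2a (1.60), Bub1b, Cenpf, Kif11 and Foxm1 of the mitosis set and Cdc6 (1.81), E2f8 (1.79), Uhrf1 (1.5), Mcm3, Chaf1b and Hells of the replication set, with medians of 0.95 and 0.30. The total of 14 called was 5 without injured library 4 of the arm, 9 without its contralateral library 4, and 9 with column number as a block. Of all genes, 3392 were called higher and 2563 lower in the main fit. In the same 3 alternatives these were 2083 and 1197, 2804 and 1985, and 2827 and 2021.

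**Figure D4:**
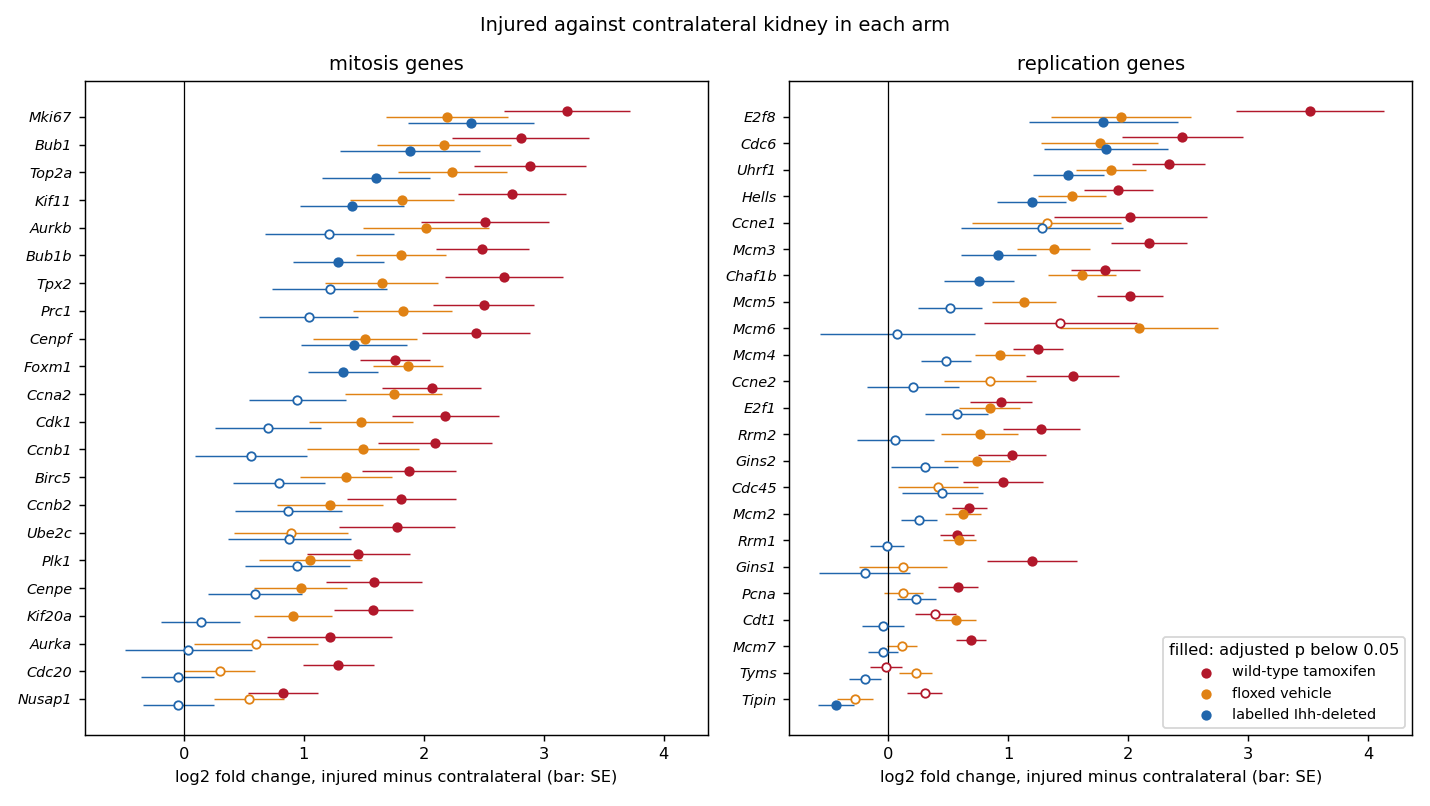
Log2 fold change of each member, injured minus contralateral kidney, in each of the 3 arms (points; bars are the SE; filled points passed an adjusted p of 0.05), mitosis genes left and replication genes right. The wild-type tamoxifen arm is highest for 40 of the 45 genes, and most points of the labelled Ihh-deleted arm are open.

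Set directly against the injured intact arms, injured kidneys labelled Ihh-deleted held less RNA of 29 members and more of none (edgeR adjusted p below 0.05). Of all genes, 20.5% were called higher and 16.6% lower. Lower were 15 mitosis genes, with a median log2 fold change of -1.09 over the 22, and 14 replication genes, with a median of -0.76 over the 23, against -0.01 over all genes, and all 45 values were below 0. The lowest mitosis genes were Cdk1 (-1.39), Ccnb1 (-1.30) and the checkpoint kinase Bub1b (-1.28), and the values nearest to 0 were Plk1 (-0.67), Ccnb2 (-0.62) and Birc5 (-0.56), none of them called. Among replication genes Mcm6 (-2.04), the histone chaperone subunit Chaf1b (-1.33) and E2f8 (-1.27) were lowest, and Cdc45 (-0.36), Pcna (-0.29) and Tyms (-0.08) did not pass.

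All 6 MCM genes were among the 29, with Mcm5 at -1.26 (SE 0.24, adjusted p = 0.000649), and so was 1 of 5 genes of origin licensing and firing. Mki67 was not (-0.98, SE 0.44, adjusted p = 0.0790). In library 4 of the labelled Ihh-deleted arm its 65.4 CPM lay within the intact injured range of 20.9 to 116 CPM, and the other 3 libraries lay below that range. Without library 4 the log2 fold change of Mki67 was -1.98 (SE 0.40, edgeR adjusted p = 0.000585), and over all alternatives its adjusted p ran from 0.000585 to 0.270, with DESeq2 at 0.0448. Chaf1b and Tipin were the members with all 4 labelled Ihh-deleted libraries below all 8 intact ones, which held for 3.65% of all genes tested, and Tipin was lower by -0.80 (SE 0.13, adjusted p = 0.000282). Against the wild-type tamoxifen arm alone 34 members were lower, 18 of mitosis (median -1.32) and 16 of replication (median -0.96), where 20.5% of all genes were called higher and 18.1% lower. Against the floxed vehicle arm alone 11 were lower, 2 of mitosis (median -0.85) and 9 of replication (median -0.59), where 9.06% were called higher and 7.31% lower. The count of 29 was 19, 16 and 14 without library 1, 2 or 3 of the labelled Ihh-deleted arm. Of all genes, 2928 were called lower there in the main fit, and 2292, 1998 and 1403 without those libraries. The count of 34 was 21 and 18 without library 2 or 3 of that arm and 15 without injured wild-type tamoxifen library 2, and the count of 11 was 7, 5, 1 and 33 without library 1, 2, 3 or 4 of that arm and 5 and 1 without injured floxed vehicle library 1 or 4. Counts over all genes moved too. Against wild-type tamoxifen 3184 genes were lower in the main fit, and 2377, 1982 and 2128 in the 3 fits named. Against floxed vehicle the main fit had 1287, and 832, 480, 96 and 2657 without library 1, 2, 3 or 4 of the labelled Ihh-deleted arm. Without injured floxed vehicle library 1 or 4 there were 1133 and 47.

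The difference in injury effect, tested as an interaction over injured and contralateral kidneys, was called for 2 of the 45 members. That share was no higher than the share of all genes called lower. Mcm5 differed by -1.05 on the log2 scale (SE 0.33, edgeR adjusted p = 0.0324) and Rrm1 by -0.59 (SE 0.17, adjusted p = 0.0264), where 5.74% of all genes were called lower and 10.4% higher. All 45 members had values below 0, with medians of -0.85 in mitosis and -0.58 in replication genes, and 17 had an unadjusted p below 0.05. The share of all genes at that unadjusted threshold is not given here, so the 17 cannot be set against it. Members measured in the same libraries move together, so the 45 signs are not separate results. The lowest after Mcm6 (-1.69) were Ccnb1 (-1.23), Cdk1 (-1.13) and the central spindle protein Prc1 (-1.12), none called, and Mki67 was nearest to 0 in the mitosis set at -0.30. Pcna was nearest to 0 in the replication set at -0.12. Of all genes called in the interaction 64.4% were higher, and 54.3% with RLE size factors, under which 4 members were called. The count was 0 without injured labelled Ihh-deleted library 2 or 3, and 1 without library 1, any contralateral library of that arm or injured wild-type tamoxifen library 2. It was 4 without contralateral floxed vehicle library 2 or injured floxed vehicle library 3, and 25 without injured labelled Ihh-deleted library 4. Between the injured kidneys of the intact arms none of the 45 was called by edgeR, 2 had an unadjusted p below 0.05 and DESeq2 called 0, where 0.534% of all genes were called higher and 1.69% lower. Among the values of that contrast the largest were E2f8 at 1.11, Mcm6 at 0.81 and Mki67 at 0.70, all higher in wild-type tamoxifen.

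Mitosis genes and replication genes kept a similar order of arms. The mitosis sum averaged 269 ± 118 CPM in injured wild-type tamoxifen, 190 ± 100.3 CPM in injured floxed vehicle and 109 ± 83.2 CPM in injured labelled Ihh-deleted kidneys (SD, n = 4 each), and the replication sum 465 ± 83.1, 405 ± 53.1 and 295 ± 49.95 CPM. In these means both sums were highest in wild-type tamoxifen and lowest in labelled Ihh-deleted kidneys, with SDs of the mitosis sums that overlap. The ratio of mitosis to replication sums averaged 0.561, 0.451 and 0.344 in the same order. Its mean log2 value was -0.638 in labelled Ihh-deleted minus intact injured kidneys, close to the SD within groups of 0.564. Leaving out labelled Ihh-deleted library 3 or 4 gave -0.424 or -0.981.

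Sums of B cell and T cell markers were high in the injured libraries with high mitosis sums. The mitosis sum of the injured labelled Ihh-deleted libraries was 79.9, 73.0, 50.1 and 232 CPM, and the sum of 7 B cell markers there was 5.94, 9.53, 9.87 and 146 CPM. In the floxed vehicle arm, libraries 1 and 4 had mitosis sums of 318 and 221 CPM with B cell sums of 193 and 137 CPM, and libraries 2 and 3 had 113 and 107 CPM with 17.4 and 9.39 CPM. Mitosis sums of wild-type tamoxifen libraries were 219, 445, 225 and 188 CPM, and their B cell sums 100.2, 423, 195 and 45.1 CPM. The sum of 10 T cell markers was 88.9, 233, 104 and 69.4 CPM in wild-type tamoxifen libraries, 17.1, 26.8, 18.4 and 107 CPM in labelled Ihh-deleted and 128, 35.7, 31.3 and 121 CPM in floxed vehicle libraries. Sums of other cell markers spread widely over the 12 injured libraries too, and are not given by library here. They were 146 to 1432 CPM for dendritic, 283 to 1830 CPM for macrophage and 379 to 3339 CPM for fibroblast and mural markers. Between injured and contralateral kidneys all 10 macrophage, 6 monocyte, 8 dendritic, 10 T cell, 7 B cell, 8 plasma cell and 10 fibroblast and mural markers rose, as did 9 of 9 injured tubule markers, and 12 of 12 proximal tubule markers fell. Between injured labelled Ihh-deleted and intact kidneys, 10 of 10 macrophage, 6 of 6 monocyte, 10 of 10 fibroblast and mural, 5 of 8 dendritic, 3 of 10 T cell and 0 of 7 B cell markers were lower, 12 of 12 proximal tubule markers were higher and 0 of 9 injured tubule markers differed by that test. The part of these cells in the bulk differences was not tested.

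Kidneys of the other groups held the members at low levels. The mitosis sum was 36.6 to 48.9 CPM in 3 nephrectomy and 29.98 to 35.7 CPM in 2 uninjured libraries, and the replication sum 229 to 246 CPM and 233 to 252 CPM. Mki67 stood at 8.26, 7.17 and 5.70 CPM after nephrectomy and 7.05 and 6.05 CPM in uninjured kidneys, inside the contralateral range. Between nephrectomy and uninjured kidneys 0 members were called (2 at an unadjusted p below 0.05, DESeq2 0), where 0.131% of all genes were called higher and 0.0454% lower. Between contralateral and uninjured kidneys the count was also 0 (3 and 0), with 0.227% and 0.199%, and between contralateral labelled Ihh-deleted and intact kidneys 0 (1 and 0), with 0.00568% and 0%. Only 2 uninjured libraries entered, and library 2, with 0.593 M counts, listed 17 of the 45 members at 0. In nephrectomy against contralateral kidneys Mcm7 was lower by 0.49 (log2 fold change -0.49), the single member called, where 3.38% of genes were called higher and 2.24% lower. That call was lost without nephrectomy library 1 or 4, and 3 members were called without contralateral floxed vehicle library 2. Genes called lower numbered 394 in the main fit, 326 and 109 without those nephrectomy libraries and 811 without that contralateral library.

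Injured kidneys stood above both of these groups too. Against nephrectomy 39 members were higher, 21 of mitosis (median log2 fold change 1.80) and 18 of replication (median 0.74), where 32.4% of all genes were called higher and 29.2% lower. The folds were largest for Bub1 (3.09), Bub1b (2.70) and Top2a (2.69) and for E2f8 (2.62), Ccne1 (2.13) and Chaf1b (2.11). Against uninjured kidneys 23 were higher, 14 of mitosis (median 2.06) and 9 of replication (median 0.84), where 19.8% were called higher and 18.4% lower, and the count was 1 without uninjured library 3. Kif11, a motor of the spindle, was higher by 3.23, and Mcm3 by 2.33.

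A wider list of cell cycle genes moved in part with the members. In injured against contralateral kidneys 38 of 46 further mitosis genes rose and 3 fell, led by the motors Kif15 (2.33, SE 0.30) and Kif14 (2.15, SE 0.28) and the condensin subunit Ncapg (2.31, SE 0.32). Of 42 further replication genes 23 rose and 5 fell, led by the origin kinase Cdc7 (1.95), the origin recognition subunit Orc1 (1.86) and the checkpoint mediator Clspn (1.5). Their medians were 1.37 and 0.26, where 39% of all genes were called higher and 34.7% lower. Drivers of G1 were mixed: 6 of 10 rose, among them the D-type cyclin Ccnd2 (1.72, SE 0.18) and Myc (1.33, SE 0.21), while Ccnd1, the other D-type cyclin named, fell by 0.85 (log2 fold change -0.85, SE 0.12, adjusted p = 9.50e-07). Of 18 brakes 10 rose and 4 fell, with Cdkn2a, an inhibitor of cyclin D kinases, at 5.25 (SE 0.71), the p53 target Cdkn1a at 2.25 (SE 0.19) and the Cdk1-inhibiting kinase Pkmyt1 at 2.04 (SE 0.24).

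In injured labelled Ihh-deleted against intact kidneys 24 of the 46 mitosis genes and 20 of the 42 replication genes were lower. Of all genes, 16.6% were called lower there and 20.5% higher. Troap (-1.68), the kinase Melk (-1.67) and the kinetochore protein Ndc80 (-1.61) were lowest in the first list, and Orc1 (-1.43) and Wdhd1 (-1.38) were among the lowest in the second, while 2 mitosis genes, the motor Kif23 and Cks2, were higher. The G1 drivers Ccnd2 (-1.04, SE 0.27), E2f2 (-0.73) and Cdk6 (-0.42) were lower. Ccnd1 (0.06, SE 0.18) and Cdkn1a (0.04, SE 0.27) were not called. Within the labelled Ihh-deleted arm Cdkn1a rose by 2.44 (SE 0.34) and Cdkn2a by 5.71 (SE 1.5), and 13 of 46 mitosis and 7 of 42 replication genes rose, where 19.3% of all genes were called higher. In the interaction 3 mitosis genes were higher and 4 lower, 3 replication genes were lower, and none of the 18 brakes was called, where 10.4% of all genes were called higher and 5.74% lower.

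The 10 genes outside these lists whose log2 CPM followed Mki67 most closely over the 29 libraries were Knl1 (Pearson r = 0.959), Arhgap4 (0.959), Ncapg2 (0.957), Kif21b (0.957), St6gal1 (0.955), Syk (0.954), Rab30 (0.953), Sept6 (0.953), Akna (0.952) and Atad2 (0.952). Knl1 is a kinetochore scaffold and Ncapg2 a condensin subunit, while Syk is a signalling kinase of B cells and other white blood cells. Among the members Kif11 (0.961), Uhrf1 (0.952) and Cenpf (0.950) were most like Mki67, and Tyms (0.189) and Tipin (0.275) least. These libraries share the split into injured and other kidneys, and the values are a description.

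Single cells showed where the members' RNA lay. Each library is 1 kidney, so there is no test between them, and intervals cover counting error only. In the injured library all 45 members were listed, and in the uninjured library 13 mitosis and 19 replication members. Mitosis members made up 189 UMI CPM in the injured library, that is, unique molecular identifiers (UMIs, counted RNA molecules) per 1000000 UMIs (95% exact Poisson interval 179 to 199, 1463 UMIs) and 22.2 in the uninjured one (17.9 to 27.3, 90 UMIs). Replication members made up 287 (276 to 300) and 81.9 (73.4 to 91.2) UMI CPM. At least 3 different members were found in 161 of 3063 injured cells, 5.26% (exact binomial interval 4.49 to 6.11), and in 7 of 1313 uninjured cells, 0.533% (0.215 to 1.10). The libraries also differed in median mitochondrial share, 5.97% in injured and 23.6% in uninjured cells, and shared 8 barcodes. Cells with at least 3 members were deeper, with a median of 3714 UMIs against 1948 in the others. Their median was 1485 genes against 914, and no barcode of that library held more than 2496. By class it was highest in the fibroblast and mural-like (2153) and injured tubule-like (2083) cells with at least 3 members. Whether dividing cells of any class were lost to such a limit, or before sequencing, was not tested. A doublet caller marked 5 and 3 cells, too few for doublets to have been removed by it.

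Among the deposited cells, white blood cell-like ones held most of the members' RNA. Cells were clustered without the members and the wider list and named from fixed markers, and clusters of dendritic-like, B cell-like, T cell-like, macrophage-like, monocyte-like and plasma cell-like cells made up 1271 of the 3063 injured cells. They held 136 of the 161 cells with at least 3 members (84.5%), 88.9% of the mitosis UMIs and 73.5% of the replication UMIs. At least 3 members were found in 10.7% of them (9.05 to 12.5), in 15 of 1401 tubule-like cells, 1.07% (0.600 to 1.76), and in 10 of 391 fibroblast, mural and endothelial-like cells, 2.56% (1.23 to 4.65). Mitosis UMI CPM were 406, 27.3 and 76.8 in the same order. The uninjured library held only 40 white blood cell-like cells, 2 of them with at least 3 members. The macrophage-like cell among these 2, with 12 members and 8052 UMIs, was marked by the doublet caller.

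**Figure D5:**
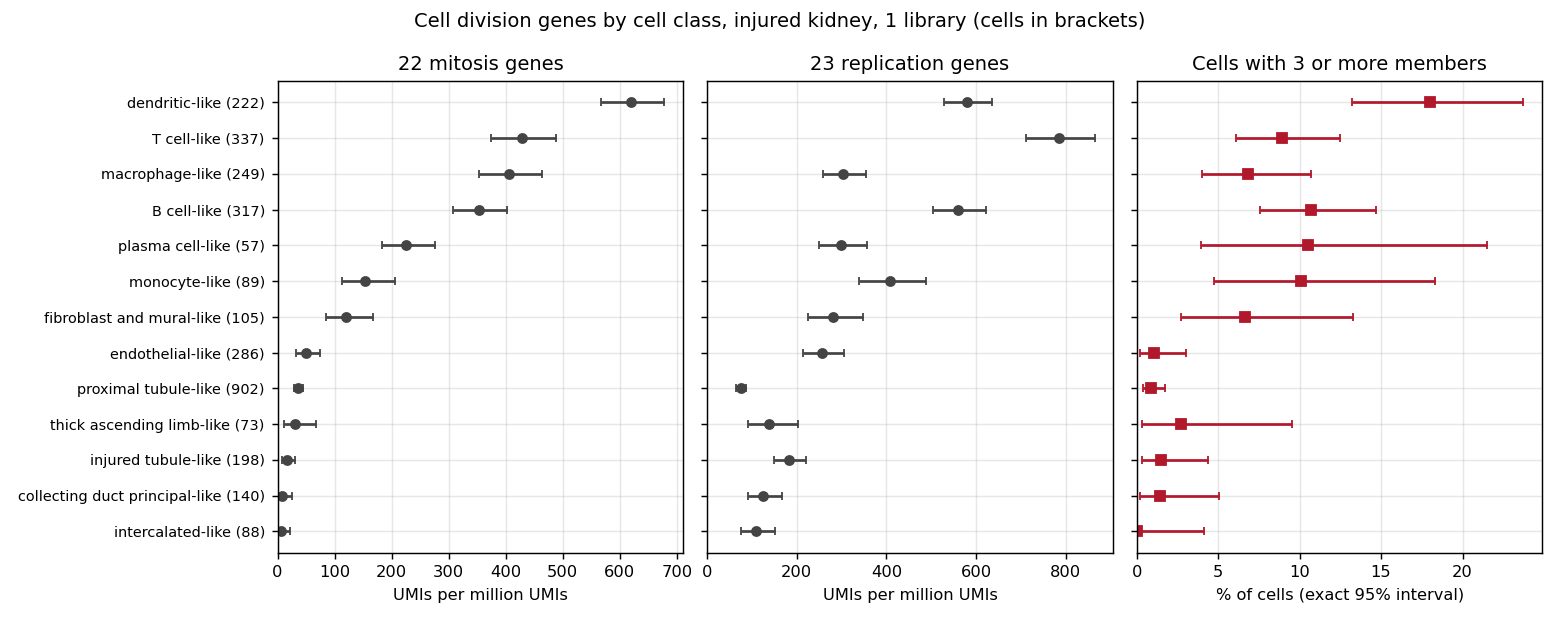
UMI CPM of mitosis and of replication members (left and middle, exact Poisson intervals) and the percentage of cells with at least 3 members (right, exact binomial intervals) by cell class in the injured library, with the number of cells in brackets. Dendritic-like cells are highest in mitosis UMIs (620 UMI CPM) and share of cells (18.02%), T cell-like cells in replication UMIs (785 UMI CPM), and tubule classes are low in the left and right panels.

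Dendritic-like cells had the largest share, 40 of 222 cells or 18.02% (13.2 to 23.7), with 620 mitosis UMI CPM (567 to 678) and 579 replication UMI CPM. B cell-like cells had 34 of 317 (10.7%, 7.54 to 14.7) and 353 mitosis UMI CPM, and T cell-like cells 30 of 337 (8.90%, 6.09 to 12.5) and 429. Plasma cell-like cells had 6 of 57 (10.5%), monocyte-like cells 9 of 89 (10.1%) and macrophage-like cells 17 of 249 (6.83%, 4.03 to 10.7). Thick ascending limb-like cells, taken as the background that free RNA and counting allow, had 2 of 73 (2.74%, 0.334 to 9.55) and 30.8 mitosis UMI CPM (11.3 to 67.0). In mitosis UMIs the interval of every white blood cell class lay above that one, and in the share of cells only that of dendritic-like cells did. The UMI intervals take UMIs as independent, which those of 1 cell are not, so they are too narrow. In 4 of 57 plasma cell-like (7.02%) and 5 of 89 monocyte-like cells (5.62%) there were 2 or more mitosis members. The same held for 28 of 222 dendritic-like (12.6%), 16 of 317 B cell-like (5.05%) and 10 of 249 macrophage-like cells (4.02%). It held for 12 of 337 T cell-like (3.56%) and 1 of 73 thick ascending limb-like cells (1.37%). Thinned to 1000 UMIs per cell, the mitosis interval of monocyte-like cells (112 UMI CPM, 53.9 to 207) overlapped that of thick ascending limb-like cells (27.4, 3.32 to 99.0). Median depth was 3332 UMIs in dendritic-like, 1601 in B cell-like, 1309 in T cell-like and 2481 in thick ascending limb-like cells. At 1000 UMIs, a depth every cell reached, the shares were 9.46%, 4.73%, 5.04%, 3.61% and 0% in dendritic-, B cell-, T cell-, macrophage- and thick ascending limb-like cells.

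Within classes the shares were uneven. Of the dendritic-like clusters, the 62 injured cells led by Xcr1 and Clec9a, genes of cross-presenting dendritic cells, had at least 3 members in 32.3% and 1064 mitosis UMI CPM, and the 160 cells led by Cd209a had 12.5% and 369. Of the T cell-like clusters, the 67 cells led by Tnfsf8, Tnfrsf4 and Izumo1r had 19.4%, and the 270 cells with Cd8b1 among the leading genes 6.30%. The balance of the sets also differed: mitosis UMIs per replication UMI were 1.34 in macrophage-like, 1.07 in dendritic-like, 0.630 in B cell-like and 0.546 in T cell-like cells. Thinned to 1000 UMIs per cell they were 0.712 (47 and 66 UMIs) in macrophage-like, 1.04 (122 and 117) in dendritic-like, 0.453 (58 and 128) in B cell-like and 0.379 (75 and 198) in T cell-like cells, so that the order of the first pair turned. In T cell-like cells replication UMIs reached 785 UMI CPM (711 to 865).

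Tubule-like classes held few cells with at least 3 members. In proximal tubule-like cells 8 of 902 (0.887%, 0.384 to 1.74) held at least 3 members, against 3 of 1046 (0.287%, 0.0592 to 0.836) in the uninjured library, with 35.6 and 22.5 mitosis UMI CPM. Thinned to 1000 UMIs per cell the shares were 0.333% and 0.287% and the mitosis values 24.4 (15.3 to 36.9) and 31.5 UMI CPM (21.7 to 44.3), so that the order turned. One proximal tubule-like cluster of 155 injured cells stood higher, at 91.2 mitosis UMI CPM (65.5 to 124) against 20.4 (11.4 to 33.6) in its 181 uninjured cells, and 3 of the 155 (1.94%) held at least 3 members, with at most 14 members in a cell. The share of its cells with Mki67 or Top2a was similar, 8 of 155 injured (5.16%, 2.25 to 9.92) and 8 of 181 uninjured (4.42%, 1.93 to 8.52). In injured tubule-like cells, a cluster led by Lcn2, Cryab and Bst1, 3 of 198 (1.52%) held at least 3 members. That cluster had 182 replication UMI CPM (149 to 221) with 15.8 mitosis UMI CPM (7.21 to 29.9), no cell with 2 or more mitosis members, and no more than 3 members in any cell, while thick ascending limb-like cells had 139 replication UMI CPM (91.3 to 202). Mitosis UMIs per replication UMI were 0.0865 in that cluster. They were 0.0682 in collecting duct principal-like, 0.0571 in intercalated-like, 0.222 in thick ascending limb-like and 0.477 in proximal tubule-like cells. The 32 uninjured cells of the injured tubule-like cluster had 153 replication (83.6 to 257) and 21.9 mitosis UMI CPM (2.65 to 78.9). At least 3 members were found in 2 of 140 collecting duct principal-like cells (1.43%) and in 0 of 88 intercalated-like cells. For the latter, 3 cells would be 3.41%, and the exact interval reached 4.11%. Fibroblast and mural-like cells had 7 of 105 (6.67%, 2.72 to 13.3) and 121 mitosis UMI CPM (84.4 to 167), and endothelial-like cells 3 of 286 (1.05%). The larger fibroblast and mural-like cluster (61 cells) had 49.7 mitosis UMI CPM (22.7 to 94.4), and the other (44 cells) 230 (151 to 334), where 1 cell held 26 members and was the only one with 2 or more mitosis members. Thinned, the class stood at 105 (52.3 to 187), which overlapped thick ascending limb-like cells.

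Top2a stood at 120 UMI CPM in dendritic-like, 87.7 in T cell-like, 87.1 in B cell-like and 67.8 in macrophage-like cells, at 4.29 in proximal tubule-like cells and at 0 in injured tubule-like and thick ascending limb-like cells. Mki67 stood at 53.8, 38.1, 41.2 and 37.7 in the same white blood cell classes and at 5.58 in proximal tubule-like cells. Mcm6 was highest in T cell-like cells, at 114 UMI CPM (87.3 to 147), against 46.3 in dendritic-like and 6.44 in proximal tubule-like cells. Tyms, flat in bulk, was spread over classes: 62.9 UMI CPM in T cell-like, 55.9 in endothelial-like, 45.04 in dendritic-like, 26.3 in injured tubule-like and 22.7 in proximal tubule-like cells. Pcna likewise was found at 74.4 in T cell-like, 57.6 in dendritic-like and 31.5 in injured tubule-like cells, and at 30.8 (11.3 to 67.0) in thick ascending limb-like cells.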

How the data were processed

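Bulk values were expected counts per transcript, estimated by the authors with Salmon 1.4 (builds GRCm38 and mm10 are named), per the submitters' processing notes, and deposited as 4 columns for each of 8 bulk samples, taken here as libraries. The sources used here do not give its index or options. Single-cell values were UMI counts per gene and barcode, deposited by the authors after 10x 3' v2 libraries of live-sorted cells per the labels' protocols, with Cell Ranger and STAR per the submitters' processing notes. The barcodes held 1004 UMIs or more and no more than 2496 genes.

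Transcripts were summed to 33714 genes through GENCODE M21 (105281 of 105833 matched, the others with 0.185% of counts) and rounded, since 83.2% of positive values were not whole. edgeR 4.0.16 in R 4.3.3 was run with TMM factors, filterByExpr, 1 coefficient per group over 29 libraries, quasi-likelihood F tests and Benjamini-Hochberg adjustment over 17616 genes in each of 15 contrasts. The SE of a log2 fold change was taken from the F statistic. The fit was tested on simulated data. DESeq2 1.42.0 was an alternative, and the others are under the dependence on processing. The numbers of the kidneys of an arm were not taken as pairs, and no block was used. No library was a copy of another in its group (lowest chi-square per gene 1.82). Cells were clustered with scanpy 1.11.5 (Leiden resolution 1).

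Named genes were all members by role, 16 members by library, the 3 highest and 3 lowest folds in each set, the 3 largest called folds in each wider list with Ccnd1 and Cdkn1a, and the 10 genes most like Mki67. Bub1, Tipin, Tyms and Rrm1 values, cell clusters and classes shown beside these were chosen after their values were seen. Some genes of the wider lists are not reported by name here. The members and lists were chosen with earlier results of these data known.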

Additional observations from a re-analysis of the deposited data

Results flagged for a closer look

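Of 114 groups of 4 libraries examined for a sample far from the others, 15 had one, and at the 95% critical value used chance gives about 1 in 20. Injured labelled Ihh-deleted library 4 was high in Mki67 (65.43 CPM, the others 9.20 to 15.8), Top2a (50.26, the others 9.24 to 14.2), Ccne1 (1.557, the others 0.311 to 0.421) and the mitosis sum (232.2, the others 50.1 to 79.9). Its B cell marker sum was 146 CPM against 5.94 to 9.87 in the others, and the part of those cells was not tested. Injured wild-type tamoxifen library 2 was high in Top2a (100.5 CPM), Mcm5 (24.81), Uhrf1 (22.43), the mitosis sum (444.6) and the replication sum (588.7), with the others at most at 46.3, 15.3, 14.0, 225 and 431. Its B cell marker sum was 423 CPM, the highest of the 12 injured libraries.

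Contralateral libraries stood apart too. Mcm6 was 17.9 CPM in labelled Ihh-deleted library 4 against 2.70 to 3.77 in the others, and the mitosis sum was 60.99 CPM in library 1 of that group against 40.3 to 43.8. In the floxed vehicle group Pcna was 61.04 CPM in library 2 against 33.7 to 37.1, and Cdc6 1.172 CPM in library 3 against 0.450 to 0.557. Low values were Top2a in wild-type tamoxifen library 3 (5.08 CPM, the others 8.50 to 8.85) and, among injured libraries, Mcm6 in floxed vehicle library 3 (12.7 CPM, the others 25.1 to 26.9).

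In edgeR's interaction test the injury effect was called different between the labelled Ihh-deleted and the intact arms for 2 of the 45 members. These were Mcm5 (-1.054 on the log2 scale, SE 0.33, adjusted p = 0.0324) and Rrm1 (-0.5923, SE 0.17, adjusted p = 0.0264). That share of the members was no higher than the 5.74% of all genes called lower. Without injured labelled Ihh-deleted library 2 or 3 the count of members called in that test was 0. Genes called lower fell there from 1011 to 523 and 274.

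In the 3 heart-profile libraries that entered no comparison the mitosis sum on library totals was 79.46 CPM (nephrectomy library 3), 85.84 CPM (uninjured library 1) and 97.24 CPM (uninjured library 4), against 28.7 to 41.9 CPM in the 5 kidney-profile libraries of those groups. Cenpf, which was 51.5, 64.1 and 69.6 CPM there and 1.82 to 6.75 CPM in the others, held most of that sum, while Mki67 was 4.8 to 6.23 CPM and 4.93 to 7.08 CPM.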

How the results depend on the processing

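Counts of members called over the 3 arms ran from 40 to 42 when each library was left out, against 41. The same ranges were 38 to 42 in the wild-type tamoxifen arm, 27 to 36 in the floxed vehicle arm, 5 to 20 in the labelled Ihh-deleted arm, 14 to 39 for injured labelled Ihh-deleted against intact, 15 to 40 against wild-type tamoxifen, 1 to 33 against floxed vehicle and 0 to 25 for the interaction. They were 31 to 40 against nephrectomy, 1 to 26 against uninjured, 0 to 3 for nephrectomy against contralateral and 0 in the other contrasts. The difference in log2 ratio of the sums ran from 1.061 to 1.247 and from -0.9811 to -0.4238.

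With all 32 libraries, heart profiles included, counts were 9 for contralateral against uninjured, 9 in the labelled Ihh-deleted arm, 14 against intact, 0 against floxed vehicle, 36 against uninjured, 0 for the interaction and 2 for nephrectomy against contralateral, and Cenpf turned to -0.9912 in injured against nephrectomy kidneys. Of the 17233 genes tested there, 1982 were called higher and 4025 lower in contralateral against uninjured kidneys. In the labelled Ihh-deleted arm these were 1737 and 623, against intact 894 and 763, and against floxed vehicle 0 and 0. They were 3947 and 4198 against uninjured, 128 and 39 for the interaction and 1573 and 325 for nephrectomy against contralateral. The interaction called 7 members by DESeq2 and 4 with RLE factors. Of all genes it called 1989 higher and 1709 lower by DESeq2, and 1481 and 1247 with RLE factors. The replicate block on column number gave 41, 41, 29 and 9 in the joint, wild-type, vehicle and labelled Ihh-deleted contrasts and 3 in the interaction, as a check only: deviations of same-numbered kidneys correlated at -0.298 to 0.263 over 12 pairs, 6 of them under 0.1. Of the 12, 6 were matched best by their own number, among them all 4 of the wild-type tamoxifen arm (0.0522, 0.226, 0.263 and 0.19), a hint from the data and not the design. Under that block 918 of all genes were called higher and 832 lower in the interaction. RLE factors moved the median of all genes by 0.124 in the floxed vehicle arm, and the split of interaction calls from 64.4% to 54.3% higher. Of the contralateral calls between labelled Ihh-deleted and intact arms, 1 of 1 was higher with TMM and 2 of 7 with RLE. RLE changed the sign of 5 members in the labelled Ihh-deleted arm, 1 in the wild-type arm, 3 in contralateral against uninjured and 1 in contralateral labelled Ihh-deleted against intact. With the mean of logs the ratio difference was 0.4442. The cause of these changes was not tested.

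Shares of injured cells depended on the number of members required. With at least 2 members they were 11.26% of all, 26.58% of dendritic-, 18.4% of T cell-, 17.04% of B cell-, 13.65% of macrophage-, 11.11% of injured tubule- and 3.104% of proximal tubule-like cells, and 3.808% of all uninjured cells. With at least 4 they were 3.787% of all, 6.94% of B cell-, 5.935% of T cell- and 0% of injured tubule-like cells. Thinned to 1000 UMIs they were 2.449% of all, 9.46% of dendritic-, 5.045% of T cell-, 4.732% of B cell-, 3.615% of macrophage-, 0.3326% of proximal tubule- and 0% of injured tubule- and thick ascending limb-like cells. With at most 20% mitochondrial UMIs they were 6.429% of all and 0% of thick ascending limb-like cells. Over all settings, 4626 values of single genes kept their side of the threshold and their direction, 415 lost the call and 1 reversed.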
